A study of Mus musculus with 6 samples.

Results

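The small nucleolar RNA (snoRNA) and small Cajal body RNA (scaRNA) genes were examined in whole mouse embryos at midgestation (E10.5). They were chosen by symbol, as the genes of the count table named *Snora*, *Snord* or *Scarna*, and the genes that host them were left out. This gave 150 of 55401 genes, of which 42 were H/ACA snoRNAs (*Snora*), 99 were C/D snoRNAs (*Snord*) and 9 were scaRNAs (*Scarna*). The study asked what an excess of the microRNA gene *Mir483* does in the embryo. WT embryos carried the unmodified *Igf2* locus, and 5C embryos carried a tandem array of added *Mir483* copies within it, made by targeting ES cells and transmitted by chimeric males. Both genotypes were littermates on a C57BL/6J background, and no agent was given. There were 3 libraries for either genotype, each described in the methods as a pool of 2 male embryos.

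SnoRNAs act in the nucleolus as guides that pair with pre-ribosomal RNA. C/D snoRNAs direct 2'-O-methylation and are named after a C box near the 5' end and a D box near the 3' end. H/ACA snoRNAs direct pseudouridylation and end in an ACA box followed by a short tail. ScaRNAs carry C/D or H/ACA boxes, or both, and guide the same modifications on spliceosomal RNAs in Cajal bodies. In mammals most snoRNAs are cut out of introns of host genes, many of which encode ribosomal proteins or are non-coding Snhg genes. Mature snoRNAs lack a poly(A) tail, so libraries selected for poly(A) hold only what escapes that selection, precursors included.

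Libraries held 6357343 to 19151368 counts. The smallest level they could show, 3 counts of a library, was 0.157 to 0.472 CPM (counts scaled to a common library total), and such floors cover counting error only. *Mir483* had 11, 5 and 2 counts in WT and 85, 51 and 36 counts in 5C, in the direction of the edit (log2 fold change 3.05, adjusted p = 0.169 in edgeR's quasi-likelihood test). All 10 whole-embryo markers were detected. Counts of sex-linked genes did not match pools of males alone in any of the 6 libraries. The Y-linked gene *Ddx3y* had 11 counts in WT replicate 2 and 0 counts in 5C replicate 2, against 310 to 937 counts in the other libraries, and *Xist* lay between 495 and 914 CPM in all 6 libraries. Results are therefore also given without both replicates 2, though the libraries that remain hold both *Ddx3y* and *Xist* counts.

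Sequences of the annotated transcripts (GENCODE M21, GRCm38) show the boxes that define the classes. Capitals mark TGATGA within the first 20 bases, CTGA within the last 15 bases, and ACA lying 3 bases before the end, searched on the transcribed strand only. Shown first are *Snord68* and *Snord70*, to which the study normalised microRNA RT-qPCR, then the C/D members with the most counts, and a copy of the repeated *Snord116* group, which was added after its values were seen:
Snord68: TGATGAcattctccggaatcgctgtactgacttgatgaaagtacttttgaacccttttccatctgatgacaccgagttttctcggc
Snord70: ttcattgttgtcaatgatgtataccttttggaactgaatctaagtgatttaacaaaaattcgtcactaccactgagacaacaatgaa
Snord17: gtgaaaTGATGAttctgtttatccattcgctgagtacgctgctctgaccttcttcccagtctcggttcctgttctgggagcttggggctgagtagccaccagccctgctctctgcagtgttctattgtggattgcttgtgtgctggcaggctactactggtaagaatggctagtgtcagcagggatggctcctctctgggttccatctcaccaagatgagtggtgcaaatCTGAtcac
Snord15a: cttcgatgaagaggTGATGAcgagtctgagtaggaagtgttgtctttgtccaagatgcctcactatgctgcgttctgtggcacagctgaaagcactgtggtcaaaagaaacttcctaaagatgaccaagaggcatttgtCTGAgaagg
Snord104: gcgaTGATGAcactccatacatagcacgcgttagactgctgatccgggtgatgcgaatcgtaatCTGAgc
Snord116l1: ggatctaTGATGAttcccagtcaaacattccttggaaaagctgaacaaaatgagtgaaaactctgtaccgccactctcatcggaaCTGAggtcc
The H/ACA members with the most counts follow, together with *Snora57*, which was added after its values were seen because it had the smallest p of all members:
Snora73b: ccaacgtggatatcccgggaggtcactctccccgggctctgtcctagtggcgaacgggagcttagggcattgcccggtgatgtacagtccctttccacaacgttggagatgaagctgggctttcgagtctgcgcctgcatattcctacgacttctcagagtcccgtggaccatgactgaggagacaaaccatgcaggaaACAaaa
Snora78: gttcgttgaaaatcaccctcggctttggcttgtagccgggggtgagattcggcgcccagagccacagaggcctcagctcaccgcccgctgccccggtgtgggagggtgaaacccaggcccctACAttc
Snora23: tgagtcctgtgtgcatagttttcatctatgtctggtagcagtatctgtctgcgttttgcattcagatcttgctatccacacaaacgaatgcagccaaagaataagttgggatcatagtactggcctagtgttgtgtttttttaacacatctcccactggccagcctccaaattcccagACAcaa
Snora57: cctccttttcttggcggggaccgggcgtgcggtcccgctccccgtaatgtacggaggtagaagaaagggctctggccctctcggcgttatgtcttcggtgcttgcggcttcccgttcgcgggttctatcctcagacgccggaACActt
The last pair comes from abundant scaRNAs, of which *Scarna13* ends in an ACA box and *Scarna6* carries both C/D boxes:
Scarna13: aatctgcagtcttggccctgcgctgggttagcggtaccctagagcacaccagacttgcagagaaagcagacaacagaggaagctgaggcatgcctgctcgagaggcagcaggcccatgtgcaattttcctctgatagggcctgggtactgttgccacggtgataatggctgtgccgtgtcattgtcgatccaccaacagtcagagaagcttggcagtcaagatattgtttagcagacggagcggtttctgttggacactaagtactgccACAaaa
Scarna6: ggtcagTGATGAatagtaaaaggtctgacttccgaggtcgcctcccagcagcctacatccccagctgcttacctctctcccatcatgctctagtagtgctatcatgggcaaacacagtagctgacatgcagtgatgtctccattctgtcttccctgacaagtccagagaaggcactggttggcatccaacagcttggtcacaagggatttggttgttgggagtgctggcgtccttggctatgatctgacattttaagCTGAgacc
These lie on GRCm38 at chr8:123103038-123103123 (*Snord68*, plus strand), chr1:59691934-59692020 (*Snord70*, plus), chr2:144265979-144266216 (*Snord17*, minus), chr7:99482785-99482932 (*Snord15a*, minus), chr11:106500993-106501062 (*Snord104*, plus) and chr7:59894620-59894713 (*Snord116l1*, minus). The H/ACA genes lie at chr4:132352322-132352526 (*Snora73b*, minus), chr17:24719676-24719803 (*Snora78*, minus), chr7:110046364-110046547 (*Snora23*, plus) and chr19:8888538-8888685 (*Snora57*, minus). *Scarna13* lies at chr12:105031075-105031349 on the minus strand and *Scarna6* at chr1:87784556-87784820 on the plus strand.

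The boxes followed the class names. ACA stood 3 bases before the end in 35 of 42 H/ACA members (83.3%) and in 0 of 99 C/D members. TGATGA was found near the start of 70 of 99 C/D members (70.7%) and in 0 of 42 H/ACA members. CTGA was found near the end of 92 C/D members (92.9%) and of 3 H/ACA members (7.14%). ScaRNAs were mixed, with 4 of 9 holding both TGATGA and CTGA and 2 of 9 holding ACA. Among 1409 other annotated snoRNA and scaRNA genes, the shares were 18.7% for ACA, 18.3% for TGATGA and 27.1% for CTGA. Among 4499 microRNA, snRNA, misc and rRNA genes they were 2.16%, 0.378% and 4.73%. *Snord70* held neither C/D motif in the searched windows, which says only that these letters are not there.

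Of the 150 members, 76 had at least 1 count and 74 had 0 counts in all libraries. All of the zeros fell into 2 sets. The first held 57 members that lie wholly under exons of another gene on the same strand, and each had 0 counts. *Snord68* (ENSMUSG00000064450) was among them, since all 86 of its bases lie under exons of *Rpl13*, a ribosomal protein gene. The counting method drops reads that fall on exons of more than 1 gene, so a 0 here does not speak to the RNA itself. Without such overlap, 0 counts in all libraries would allow up to 0.0378 CPM. *Snord64*, an imprinted C/D snoRNA, was at 0 for the same reason, as were all 4 members of *Gas5*, a non-coding host. Another 16 members lie partly under such exons and all 16 had counts, with a median of 18.

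The second set held the 17 *Snord116* copies (*Snord116l*), which lie in introns of *Snhg14*, a long imprinted transcript, and share no exon bases. They have only 4 distinct sequences of a median 94 bases, 14 of them carry an identical sequence, and copies of 1 length differ in at most 5 bases. No other member shared its full sequence with another. Their host was detected in all libraries, at 43.8, 55.2 and 74.98 CPM in the WT libraries and 54.7, 79.7 and 84.6 CPM in the 5C libraries. Its exons are long, so its level per length was low, at 2.51 CPM per kb of exon over all libraries. The part of repeated sequence in these zeros was not tested. The remaining 60 members, neither repeated nor under exons, all had counts, from 2 upward with a median of 118. The pair *Snora73a* and *Snora73b*, both in *Snhg3*, shows the same contrast. *Snora73a* has 159 of 205 bases under an exon of *Snhg3* and had 34 counts, and *Snora73b*, with none, had 16479 counts.

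**Figure D1:**
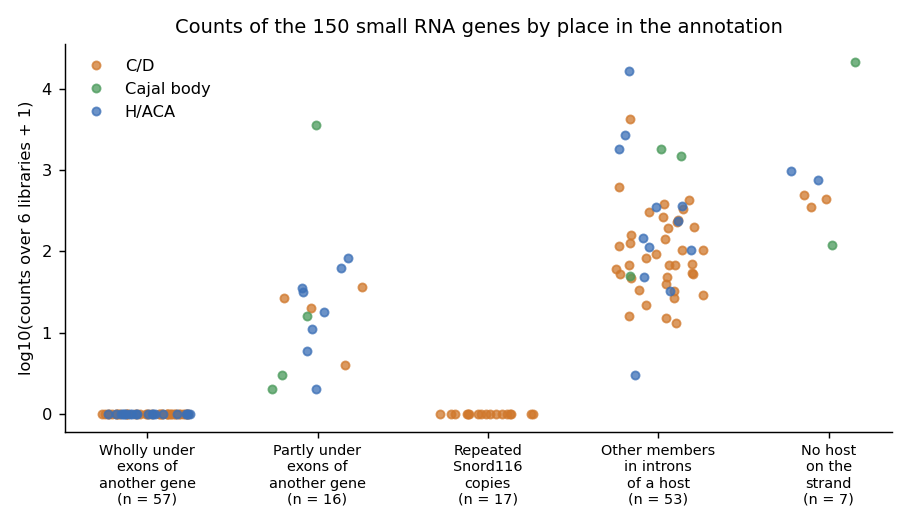
Total counts over the 6 libraries for each of the 150 members (points, log10 of counts plus 1), by place in the annotation and coloured by class. The 57 members wholly under exons of another gene and the 17 repeated *Snord116* copies sit at 0, and every other member lies above 0.

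Overlap on the opposite strand did not have this mark. *Snora73b*, *Snord42a* and *Snord4a* lie wholly under exons of a gene on the other strand and had 16479, 91 and 67 counts. Which strand column was counted is not given in the sources used here. By place, 70 members lay in an intron of a host on their strand, 73 shared exon bases with another gene and 7 had no host on their strand. All 7 of the last kind had counts and passed the filter on low counts, among them *Scarna2*, *Snora57*, *Snora17*, *Snord104* and *Snord13*. For an intronic member, reads of the mature RNA and reads of the host's unspliced transcript cannot be told apart.

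Member counts were few and uneven. The members held 63638 of 79327149 counts, or 0.0802%. *Scarna2* had 21700 counts and *Snora73b* had 16479, together 59.99% of the members' counts, and the 10 largest held 87.25%. Within classes, *Scarna2* took 75.4% of the scaRNA counts, *Snora73b* 67.7% of the H/ACA counts and *Snord17* 40.2% of the C/D counts. The level per length, over all libraries, was 1033 CPM per kb for *Snora73b*, 655 for *Scarna2*, 275 for *Snora78*, 259 for *Scarna9* and 226 for *Snord17*. Across the 77 members without shared exon bases, the Spearman correlation of length with level per length was 0.08, a description over genes that share libraries.

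**Figure D2:**
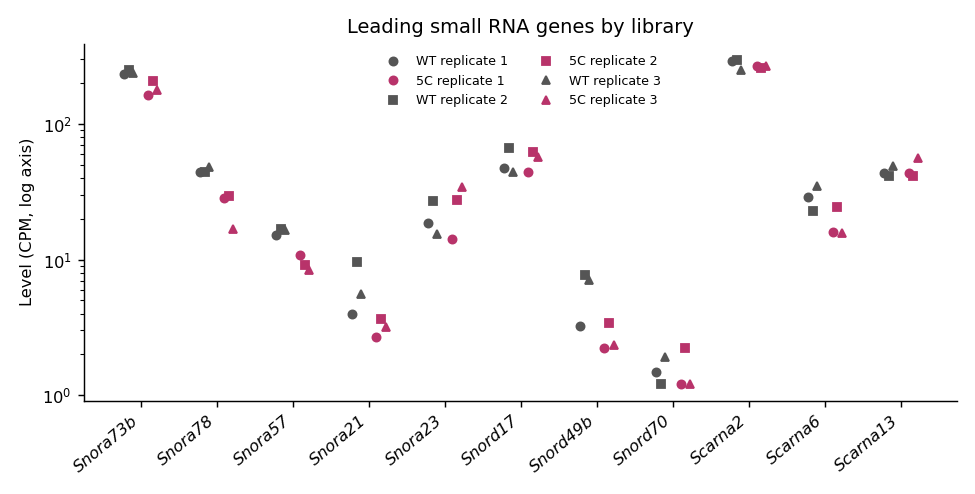
Level of 11 members in each library (CPM, log axis), WT in grey and 5C in magenta, with a marker shape for each replicate number. *Snora78* and *Snora57* separate the genotypes, with 5C libraries at 16.9 to 29.4 and 8.33 to 10.8 CPM, and *Scarna2* and *Snord17* overlap.

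The genotypes were then compared over the members. Of the 150 members, 45 passed the filter, which keeps genes with enough counts in a genotype's libraries, and 31 further members had counts but at most 67 in all. No member was called (adjusted p under 0.05, change over 1.5-fold), and neither was any other gene, 0% of 16784 genes tested. By edgeR's quasi-likelihood test at an unadjusted p under 0.05, 10 members (22.2% of those tested) were lower in 5C, where 3.47% of all genes tested were, and 0 were higher, where 2.55% of all genes were. The 3 WT and 3 5C levels did not overlap in 7 members, all lower in 5C (15.6%), against 5.1% of all genes, and in 0 members with 5C higher, against 6.26%. Log2 fold changes were below 0 for 33 members (73.3%), against 50.7% of all genes, and their median was -0.21, against -0.0024 over all genes. The smallest adjusted p of a member was 0.703.

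Leaving out WT replicate 2 moved these counts most. Without it, 6 of 49 tested members were lower at an unadjusted p under 0.05 in edgeR's test. The median was -0.10, against 0.0041 over all genes. Without both replicates 2, 7 of 50 tested members were lower and 1 was higher. The median was then -0.16, against 0.0020 over all genes. Shares of all genes at that p are not given for these fits, so the member counts stand without a background. The count of called members did depend on the test. DESeq2 tested 76 members and called 2, *Snora57* and *Snora78*, where it called 11 of 33084 genes. The quasi-likelihood test without a count filter called 5 of 76 members, where it called 319 of 33139 genes.

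**Figure D3:**
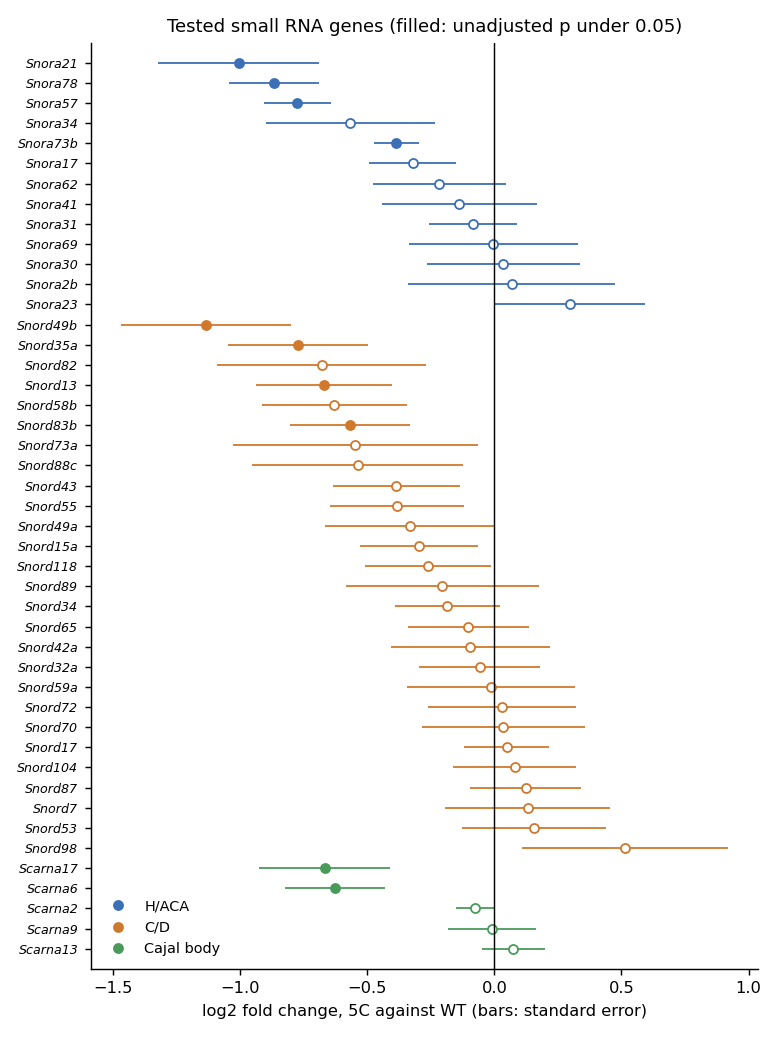
Log2 fold change of 5C against WT with its standard error for the 45 tested members, by class (H/ACA blue, C/D orange, Cajal body green), filled where the unadjusted p is under 0.05. All 10 filled points lie below 0, and the members above 0 are open.

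The classes are described in turn, and no test compared them. Of 13 H/ACA members tested, 10 had a log2 fold change below 0 (76.9%, against 50.7% of all genes). At an unadjusted p under 0.05 in edgeR's test, 4 were lower (30.8%, against 3.47% of all genes). The same 4 (*Snora73b*, *Snora78*, *Snora57* and *Snora21*) did not overlap between genotypes (30.8%, against 5.1% of all genes for 5C lower). The median log2 fold change was -0.22, and it was -0.12 without 5C replicate 1 and -0.41 without 5C replicate 2. The summed H/ACA level was 339, 381 and 347 CPM in the WT libraries and 244, 305 and 263 CPM in the 5C libraries. Every 5C library lay below every WT library, and the means were 355.7 ± 22.4 and 270.4 ± 31.0 CPM (SD, n = 3 each), a log2 ratio of -0.40. The ratio was -0.42 without *Snora73b* and -0.44 without both replicates 2.

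*Snora57* (ENSMUSG00000070167), which has no host on its strand, had the smallest p of all members. Its levels were 15.1, 16.7 and 16.6 CPM in the WT libraries and 10.8, 9.05 and 8.33 CPM in the 5C libraries. The groups did not overlap and their spread was narrow, 16.2 ± 0.902 against 9.39 ± 1.26 CPM (SD, n = 3 each). Its log2 fold change reached -0.77 (standard error, SE, 0.13), and the unadjusted p was 2.09e-04 (adjusted p = 0.703, edgeR). DESeq2 gave it an adjusted p of 0.0329, within a range over the alternatives from 2.88e-04 (no count filter) to 1.

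*Snora78* (ENSMUSG00000089255), in an intron of *Snhg9*, measured 44.1, 44.0 and 48.2 CPM in the WT libraries and 28.4, 29.4 and 16.9 CPM in the 5C libraries. The 5C libraries were all lower, with replicate 3 lowest. The log2 fold change was -0.87 (SE 0.18, unadjusted p = 7.69e-04, adjusted p = 0.781, edgeR), and DESeq2 gave an adjusted p of 6.5e-04, within a range over the alternatives from 2.05e-12 (no count filter) to 1. *Snhg9* itself had 2 to 11 counts per library and was not tested.

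*Snora73b* (ENSMUSG00000065353), also known as U17 and needed for processing of ribosomal RNA rather than for its modification, was the most abundant H/ACA member. It measured 232, 251 and 236 CPM in the WT libraries and 165, 208 and 178 CPM in the 5C libraries, without overlap. The log2 fold change was -0.39 (SE 0.09, unadjusted p = 0.00161, adjusted p = 0.781, edgeR). *Snora21*, in an intron of the ribosomal protein gene *Rpl23*, was at 3.99, 9.62 and 5.58 CPM in the WT libraries and 2.67, 3.67 and 3.203 CPM in the 5C libraries. Its log2 fold change of -1.01 rested partly on WT replicate 2, without which it was -0.55.

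The other abundant H/ACA members overlapped between genotypes. *Snora23*, in an intron of the importin gene *Ipo7*, was at 18.5, 26.9 and 15.5 CPM in the WT libraries and 14.2, 27.6 and 34.0 CPM in the 5C libraries, a log2 fold change of 0.30 (SE 0.30). Its value turned on single 5C libraries, from 0.02 without 5C replicate 3 to 0.59 without 5C replicate 1 (unadjusted p = 0.0243, edgeR). *Snora17* had a log2 fold change of -0.32 (SE 0.17) and *Snora31*, in *Tpt1*, of -0.08 (SE 0.17). With these errors, neither differed from 0 beyond the spread between replicates.

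Of 27 C/D members tested, 19 had a log2 fold change below 0 (70.4%, against 50.7% of all genes). At an unadjusted p under 0.05 in edgeR's test, 4 were lower (14.8%, against 3.47% of all genes). Genotypes did not overlap in 2, both lower (*Snord35a* and *Snord58b*, 7.41%, against 5.1% of all genes). The median log2 fold change was -0.21, and -0.07 without WT replicate 2. The summed level was 120, 172 and 137 CPM in the WT libraries and 113, 138 and 134 CPM in the 5C libraries, so the groups overlapped. The means were 143.1 ± 26.7 and 128.3 ± 13.4 CPM (SD, n = 3 each), a log2 ratio of -0.16 that was -0.0016 without WT replicate 2. Without *Snord17*, which holds 40.2% of the C/D counts, the ratio was -0.30. Replicate 2 was the highest library of its genotype in the H/ACA and C/D sums alike.

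**Figure D4:**
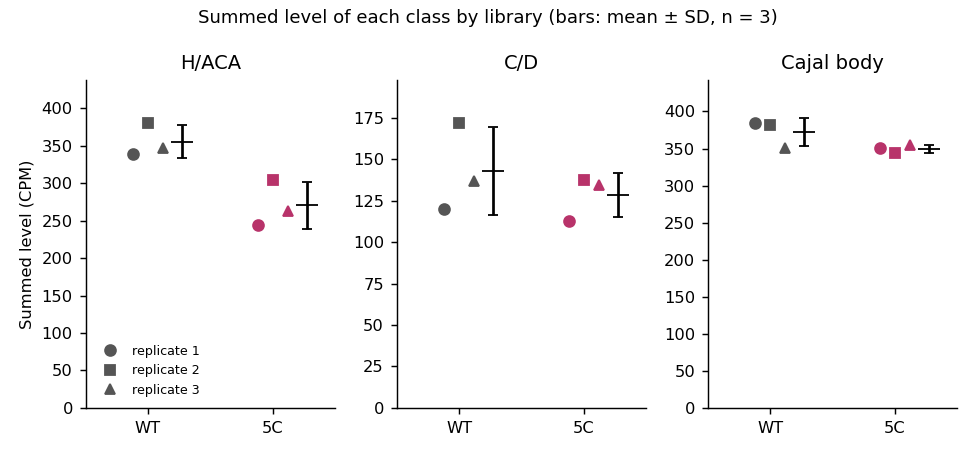
Summed level (CPM) of each class in each library, with the mean and SD (n = 3) beside the points and a marker shape for each replicate number. The H/ACA sums separate the genotypes (355.7 against 270.4 CPM on average), and the C/D and Cajal body sums overlap.

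The most abundant C/D member, *Snord17* in an intron of the sorting nexin gene *Snx5*, was at 47.5, 66.5 and 43.9 CPM in the WT libraries and 44.5, 62.4 and 57.3 CPM in the 5C libraries. Its log2 fold change was 0.05 (SE 0.17). *Snord15a*, in an intron of *Rps3*, had a log2 fold change of -0.30 (SE 0.23) and *Snord104*, with no host on its strand, of 0.08 (SE 0.24). Groups overlapped for all 3. *Snord13*, which pairs with 18S rRNA and is made from its own promoter rather than an intron, was at 4.72, 9.27 and 8.46 CPM in the WT libraries and 4.06, 5.72 and 4.13 CPM in the 5C libraries. The groups overlapped through WT replicate 1, and the log2 fold change was -0.67 (unadjusted p = 0.0328, adjusted p = 0.781, edgeR).

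*Snord49b* had the largest C/D difference. It measured 3.25, 7.64 and 7.02 CPM in the WT libraries and 2.24, 3.42 and 2.35 CPM in the 5C libraries, overlapping through WT replicate 1. The log2 fold change was -1.13 (SE 0.33, unadjusted p = 0.00724, adjusted p = 0.781, edgeR). In the other direction, *Snord98* had the largest value, 0.51 (SE 0.40; 0.11 without 5C replicate 1 and 0.79 without 5C replicate 3), *Snord53* was at 0.16 (SE 0.28) and *Snord87* at 0.12 (SE 0.22). With all libraries, no member with a log2 fold change above 0 had an unadjusted p under 0.05 in edgeR's test.

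Among C/D members of ribosomal protein genes, *Snord35a* in *Rpl13a* was at 2.31, 3.95 and 3.99 CPM in the WT libraries and 2.24, 1.96 and 1.57 CPM in the 5C libraries. The groups met closely at WT replicate 1 and 5C replicate 1 but did not overlap. *Snord58b* in *Rpl17* was at 2.05, 1.89 and 1.91 CPM in the WT libraries and 1.70, 1.195 and 0.854 CPM in the 5C libraries (log2 fold change -0.63, unadjusted p = 0.0528, adjusted p = 0.781, edgeR). *Snord83b* in *Rpl3* was at 2.89, 4.55 and 4.47 CPM in the WT libraries and 2.61, 2.90 and 2.35 CPM in the 5C libraries. It overlapped through WT replicate 1 and 5C replicate 2, with a log2 fold change of -0.57 (unadjusted p = 0.0371, adjusted p = 0.781, edgeR), beside -0.25 for *Rpl3*. Of the 33 members in *Rpl* or *Rps* hosts, 16 had counts, 14 were tested and 13 of these had a log2 fold change below 0. Among all tested members 73.3% were below 0, and 50.7% of all genes. These members share libraries and some share a host, and a difference from other members was not tested.

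*Snord68* and *Snord70* matter because microRNA levels were scaled to them. *Snord68* could not be measured here, for the reason above. *Snord70* (ENSMUSG00000077345), in an intron of *Nop58*, a core protein of C/D snoRNPs, was at 1.47, 1.20 and 1.91 CPM in the WT libraries and 1.21, 2.22 and 1.21 CPM in the 5C libraries. The groups overlapped, and the log2 fold change was 0.04 (SE 0.32, unadjusted p = 0.914, adjusted p = 0.996, edgeR). At 117 counts in all, differences of this size were not detectable at this depth.

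Of the 5 scaRNAs tested, 4 had a log2 fold change below 0 (80%, against 50.7% of all genes). In edgeR's test, 2 were lower at an unadjusted p under 0.05 (40%, against 3.47% of all genes). Genotypes did not overlap in 1, which was lower (20%, against 5.1% of all genes). *Scarna2* (ENSMUSG00000088185), the most abundant member, was at 289, 295 and 250 CPM in the WT libraries and 268, 258 and 267 CPM in the 5C libraries, a log2 fold change of -0.08 (SE 0.07). *Scarna13*, which has 65 bases under the microRNA gene *Mir3069* (log2 fold change 0.08), and *Scarna9* (-0.01) also overlapped. *Scarna6* (ENSMUSG00000089281), in an intron of *Atg16l1*, was at 28.9, 22.9 and 34.9 CPM in the WT libraries and 15.9, 24.4 and 15.7 CPM in the 5C libraries. 5C replicate 2 lay above WT replicate 2, and the other 5C libraries lay below all WT libraries. The log2 fold change was -0.63 (SE 0.20, unadjusted p = 0.0107, adjusted p = 0.781, edgeR) and was -1.003 without both replicates 2.

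*Scarna17*, on chromosome 18 with no host on its strand, was at 1.99, 1.89 and 1.595 CPM in the WT libraries and 0.909, 1.37 and 1.28 CPM in the 5C libraries, without overlap (log2 fold change -0.67, unadjusted p = 0.0281, adjusted p = 0.781, edgeR). *Scarna8* had 49 counts and was not tested. The summed scaRNA level was 385, 382 and 351 CPM in the WT libraries and 350, 344 and 355 CPM in the 5C libraries, a log2 ratio of -0.09, which was -0.14 without *Scarna2*. The genotypes overlapped through WT replicate 3 and 5C replicate 3.

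Host genes were tested in the same fit. Of 90 hosts, 88 were tested and 0 were called, 44 had a log2 fold change below 0 and 44 above, and their median was 0.0001. At an unadjusted p under 0.05 in edgeR's test, 4 hosts were lower (4.55%, against 3.47% of all genes). On the same measure 2 hosts were higher, where 2.55% of all genes were, so both counts lay near the shares over all genes. Across the 34 tested intronic members with a tested host, 19 had a log2 fold change of the same sign as the host, and the Spearman correlation of log2 fold changes was 0.31, a description over genes that share libraries and, in part, hosts. The level per length of these members was 3.38% to 5190% of the host's, with a median of 83.3%, and 15 of 34 were above their host.

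**Figure D5:**
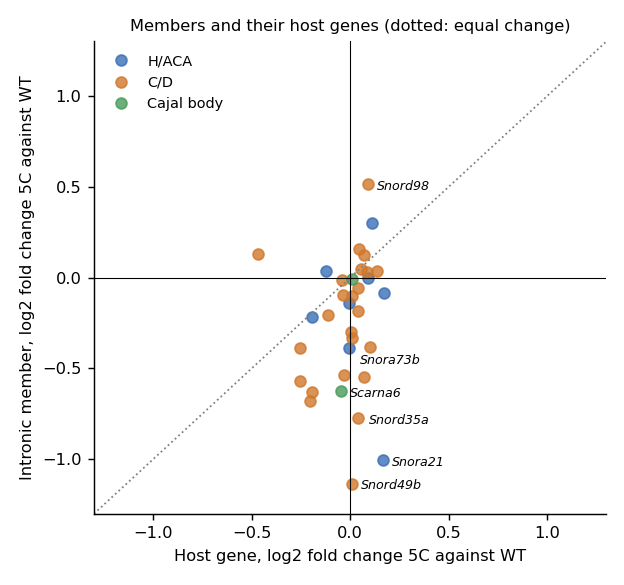
Log2 fold change of each tested intronic member against that of its host, by class, with a dotted line at equal change. Hosts lie between -0.47 and 0.17, and *Snord49b* and *Snora21* lie far below the line at -1.13 and -1.01.

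Members of 1 host had differing values. *2410006H16Rik*, a non-coding host with a log2 fold change of 0.01, carries *Snord49a* (-0.33), *Snord49b* (-1.13) and *Snord65* (-0.10). *Rpl13a*, at 0.04, carries *Snord32a* (-0.06), *Snord34* (-0.19) and *Snord35a* (-0.77, unadjusted p = 0.0193, edgeR). Differences between members of a host were not tested. *Snhg3* and *Rpl23* had log2 fold changes of -0.01 and 0.16, beside -0.39 and -1.01 for *Snora73b* and *Snora21*.

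Genes of the snoRNP machinery also showed no call, in a fit where no gene was called. The 4 core C/D proteins, which bind C/D snoRNAs and carry the methyltransferase, split into 2 below 0 and 2 above with a median of 0.01. The 4 core H/ACA proteins, among them the pseudouridine synthase *Dkc1*, also split 2 and 2, and *Gar1* was lowest at -0.24 (unadjusted p = 0.162, edgeR). Of 13 assembly and Cajal body genes, 11 were below 0 (84.6%, against 50.7% of all genes) with a median of -0.05. Among them *Nolc1*, which chaperones snoRNPs between nucleolus and Cajal body, was at -0.19 (unadjusted p = 0.0445, adjusted p = 0.781, edgeR). Of 10 listed genes of snoRNA processing, 8 were matched by symbol and tested. Of these, 2 were below 0 (25%, against 50.7% of all genes) and 6 were above. The latter included the exonuclease *Xrn2* at 0.17 (unadjusted p = 0.0358, adjusted p = 0.781, edgeR).

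Other RNAs without a poly(A) tail went in both directions. Of 7 tested, 4 were below 0 (57.1%, against 50.7% of all genes) and 0 were called. At an unadjusted p under 0.05 in edgeR's test, 2 of the 7 (28.6%) were lower and 0 were higher. Among the members, 22.2% were lower and 0 were higher, and 3.47% of all genes were lower. The same 2 RNAs were lower without overlap (28.6%, against 15.6% of members and 5.1% of all genes). *Rpph1*, the RNA of RNase P, was at 1785, 1481 and 1503 CPM in the WT libraries and 1124, 1253 and 1351 CPM in the 5C libraries (log2 fold change -0.36, unadjusted p = 0.00439, adjusted p = 0.781, edgeR). *Rnu12*, the U12 spliceosomal RNA, was lower without overlap too (-1.55), and *Rn7sk* overlapped (-0.25). *Vaultrc5*, *Rnu11* and *Rny3* were at 0.39, 0.25 and 0.21. The summed level of this list was 14470 ± 2232 CPM for WT against 12160 ± 1550 CPM for 5C (SD, n = 3 each). *Rn7sk* supplied 920009 of its 1058292 counts, and the genotypes overlapped, since 2 of the 3 5C sums lay above the lowest WT sum of 12140 CPM. Histone genes, whose mRNAs also lack a poly(A) tail, had 45 of 59 below 0 (76.3%) but a median of -0.06. At an unadjusted p under 0.05 in edgeR's test, 7 histone genes (11.9%) were lower and 0 were higher. Without overlap, 5 were lower (8.47%) and 3 were higher (5.08%). The part of poly(A) selection in the members' difference was not tested.

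Markers of tissues around the embryo also varied by library. The 8 yolk sac endoderm markers, all detected, summed to 6039, 180 and 425 CPM in the WT libraries and 119, 121 and 1170 CPM in the 5C libraries, and the 6 decidua and maternal blood markers summed to 66.9 to 202.5 CPM over all libraries. Without WT replicate 1, which holds the highest yolk sac sum, 12 of 46 tested members were lower at an unadjusted p under 0.05 in edgeR's test. Without 5C replicate 2, 12 of 50 were lower on the same measure. Shares of all genes are not given for these fits, and the part of yolk sac tissue in the members' difference was not tested. In bulk samples, fewer cells of a type and less RNA per cell cannot be told apart. Log2 fold changes fell with GC content over all genes (Spearman -0.31, n = 16770) and over the members (-0.30, n = 45), as a description. With offsets for GC content the correlation was -0.02 over all genes and -0.16 over the members. The members' median was then -0.20, and 10 of 45 were lower and 0 higher at an unadjusted p under 0.05 in edgeR's test. The part of GC content in the members' difference was not tested.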

How the data were processed

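Whole embryos of 2 genotypes, WT and 5C, were profiled with 3 libraries each. Genotype and replicate number came from the sample titles. The authors selected poly(A) RNA, made strand-specific libraries, sequenced short single-end reads, aligned them with STAR to GRCm38 and deposited raw counts per Ensembl gene. STAR counts uniquely aligned reads and drops those on exons of more than 1 gene, so genes under other exons and repeated genes lose reads. Symbols, hosts, exon overlap and sequences came from GENCODE M21, which holds 55141 of the 55401 identifiers. A host is the smallest gene on the same strand that contains the member.

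Counts were tested with edgeR 4.0.16 in R 4.3.3 (filterByExpr, TMM, quasi-likelihood F-test in legacy form, two-sided, Benjamini-Hochberg over all genes tested). CPM used TMM-scaled totals. Class sums, medians and correlations are descriptions with no test. Replicates were separate pools, and p-values measure the spread between these pools. The members and gene lists were chosen with earlier results of these data known, so their shares are no independent support. Named members were *Snord68* and *Snord70*, the most abundant of each class, and the smallest p in each direction. *Snord35a*, *Snord58b*, *Snord83b*, *Snora73a*, *Snord42a*, *Snord4a*, *Snord65* and *Snord34* were named after their values were seen.

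The replicate numbers did not pair the libraries: deviations of same-numbered libraries correlated at -0.174, 0.202 and -0.166. Alternatives were other scalings, count filters, DESeq2 1.42.0, edgeR's newer form, the replicate block and each library left out. GC offsets and leaving out both replicates 2 were added after the data were seen. The fit was tested on simulated data. There, adjusted p-values held more false calls than their nominal rate when very dispersed genes were drawn with their own dispersion, and close to that rate under the model's trend.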

Additional observations from a re-analysis of the deposited data

How the results depend on the processing

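The count of called members was 0 in all fits but a pair. It was 5 of 76 tested members without a filter on low counts, where 319 of 33139 genes were called. With DESeq2 it was 2 of 76, where 11 of 33084 genes were called, and the cause was not tested. With the replicate block it stayed at 0, and 8 members were lower at an unadjusted p under 0.05 instead of 10. Calls of host and snoRNP genes were 0 under every alternative run. With libraries left out, 45 to 50 members were tested and called members stayed at 0. Members lower at an unadjusted p under 0.05 in edgeR's test numbered 6 to 12, and members higher numbered 0 to 2. Class log2 ratios in these runs went from -0.49 to -0.33 (H/ACA), -0.27 to -0.0016 (C/D) and -0.14 to -0.06 (Cajal body).

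Some members changed sign, among them *Snord49a*, at -0.33 with all libraries, 0.13 without WT replicate 2 and 0.06 without both replicates 2. *Snord70* was -0.14 with GC offsets and -0.14 with GC offsets and the replicate block. *Scarna9* was 0.0085 with library size alone, 0.0020 without a filter and 0.0057 with the replicate block. With libraries left out, ranges that crossed 0 were *Snord104* -0.18 to 0.30, *Snord17* -0.0617 to 0.25, *Snord32a* -0.27 to 0.19, *Snord49a* -0.66 to 0.13, *Snord53* -0.0112 to 0.29, *Snord70* -0.43 to 0.19, *Snord87* -0.0314 to 0.25, *Scarna13* -0.0723 to 0.15 and *Scarna9* -0.15 to 0.14. In all, 24 values of named members reversed and 320 kept direction and side of the threshold. Depth limits the small members: 31 detected members had too few counts to test.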
